A study of Mus musculus with 4 samples.

Results

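The 49 genes described here encode the cyclins, cyclin-dependent kinases, inhibitors, replication factors and mitotic proteins that carry a cell through division. They were chosen by name from a list of cell cycle and DNA replication genes. A further entry of that list, Foxm1-associated, names no gene, and Foxm1 itself is given beside the members. All 49 were found among the 29224 genes of the deposited tables, and all 49 were among the 16793 genes with enough counts to be tested. By the phase in which each gene is best known to act, 15 were placed in G1, 14 in S and 20 in G2/M.

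The libraries came from cells sorted as astrocytes from the cerebral cortex of mice at postnatal day 5 (P5), collected with magnetic beads carrying the antibody ACSA-1, which binds the glutamate transporter GLAST. The study compared 2 libraries from Ezh2 f/f mice, in which both Ezh2 alleles are floxed and intact, with 2 from Ezh2 cKO mice, in which Cre driven by Aldh1l1 removes the floxed alleles. The deposited headers call the Ezh2 f/f libraries WT. Nothing states that the libraries of a group came from separate animals, so p-values measure the spread between these samples, which may be technical. Total counts were between 16273308 and 17522152 per library, at which 3 counts correspond to 0.170 to 0.191 CPM, a count scaled to the size of its library with the TMM factors used for every CPM given here. Ezh2 itself was lower in both Ezh2 cKO libraries (211 and 164 counts) than in both Ezh2 f/f libraries (434 and 327 counts), with a log2 fold change of -1.11 (adjusted p = 3.26e-05 in edgeR's quasi-likelihood test).

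In G1, D-type cyclins activate Cdk4 and Cdk6, cyclin E activates Cdk2, and both phosphorylate the retinoblastoma protein to free E2F factors, while small inhibitor proteins hold the kinases back. Replication origins are licensed by Cdc6 and Cdt1, which load the MCM helicase, and entry into mitosis needs cyclin A, cyclin B, Cdk1 and the Aurora and Polo kinases. In the developing cortex many of these genes are transcribed in dividing progenitors and in the glial cells that still divide locally after birth, whereas inhibitors such as Cdkn2d and Cdkn1b are also expressed in neurons that have stopped dividing. Promoters of S phase genes often carry sites for E2F, and those of G2/M genes often carry a cell cycle genes homology region (CHR) together with CCAAT boxes bound by NF-Y.

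Of the 49 genes, 31 fell and 3 rose in the Ezh2 cKO libraries at an adjusted p under 0.05 in edgeR, and 15 did not pass the test. Over all genes tested 68.4% were called, 33.6% as lower and 34.7% as higher. The median log2 fold change of the 49 genes was -0.61, against 0.02 over all genes tested. At least 2-fold decreases were called for 16 members and at least 2-fold increases for 2, where 14.0% and 19.0% of all genes passed the same rules. In 35 members both Ezh2 cKO libraries lay below both Ezh2 f/f libraries and in 5 they lay above, while 41.5% and 42.8% of all genes tested separated in these directions. In sorted cell populations measured in bulk, fewer dividing cells, a different mixture of cell types and less of a transcript per cell cannot be told apart. DESeq2's Wald test called 22 members lower and 3 higher. Its shares over all genes were not computed, and the edgeR shares above come from another test.

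**Figure D1:**
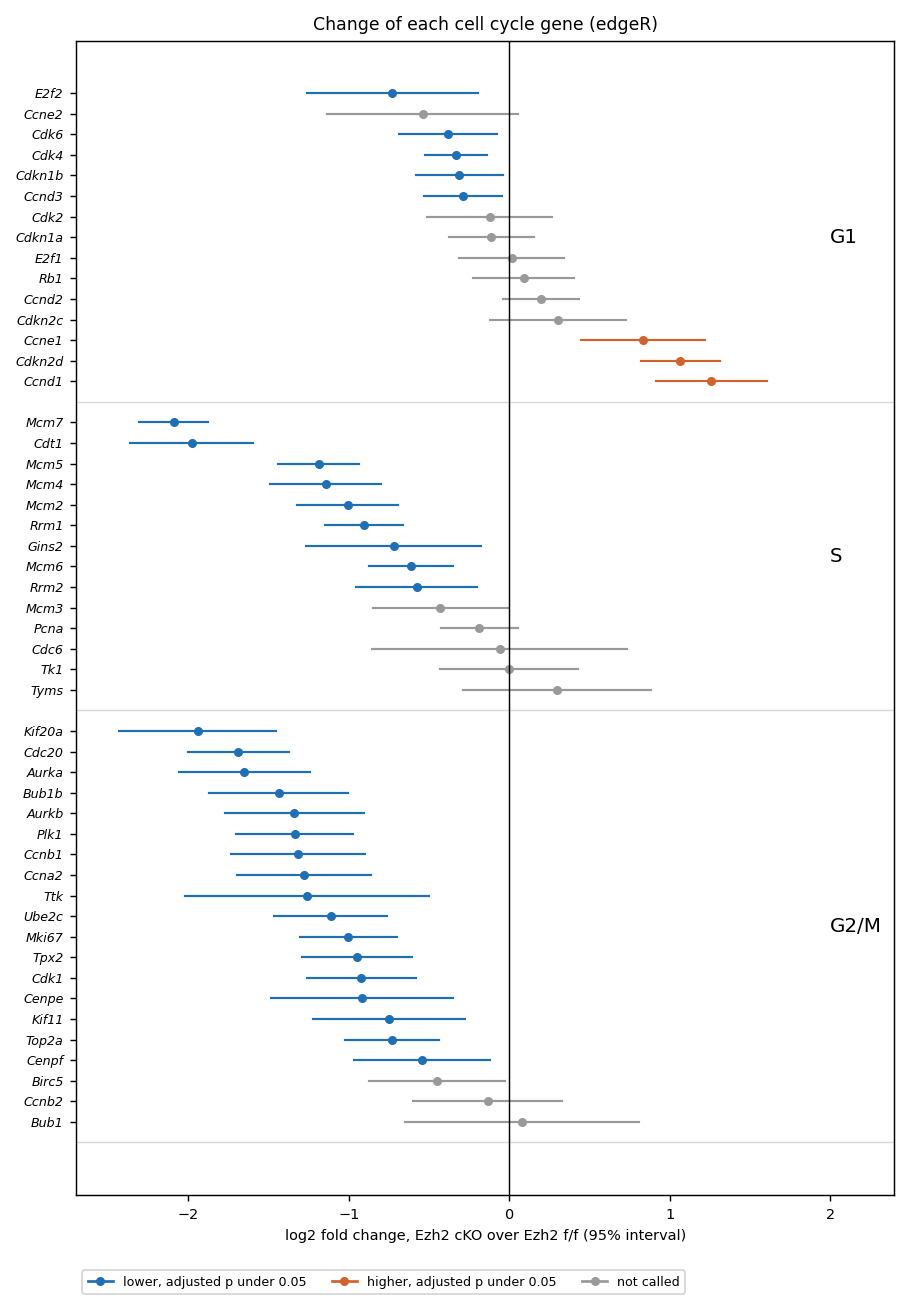
The log2 fold change of each of the 49 genes (Ezh2 cKO over Ezh2 f/f, 2 libraries each) is plotted with its 95% interval from edgeR, by phase and in order of size; blue marks the 31 genes called lower, orange the 3 called higher and grey the 15 not called. The intervals of most G2/M genes lie left of 0, and the 3 higher genes are all in G1.

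By phase, the counts were as follows. In G1, 5 of 15 genes fell, 3 rose and 7 were not called, with a median of -0.11. Beside the 33.6% of all genes tested that were called lower and the 34.7% called higher, falls in G1 were about as frequent. Rises in G1 were less frequent than among all genes. Among the S phase genes 9 fell, none rose and 5 were not called, with a median of -0.67. Of the G2/M genes 17 fell, none rose and 3 were not called, with a median of -1.06. No S or G2/M gene was higher at an unadjusted p under 0.05 in edgeR either (0 and 0), nor in DESeq2 (0 and 0). DESeq2 called 8 S and 13 G2/M genes lower, and its share over all genes was not computed. Without Ezh2 f/f replicate 1 the S gene Tyms was called higher. Summed FPKM, which are counts scaled to gene length and library size and so can be added over genes, were used as deposited, without TMM factors. They went from 116 ± 3.90 in Ezh2 f/f to 146 ± 0.339 in Ezh2 cKO for the G1 genes (SD, n = 2). Cdkn2d alone went from 25.2 ± 4.27 to 56.0 ± 0.913 FPKM, and the sum of the other G1 genes was 90.8 ± 0.373 in Ezh2 f/f against 89.8 ± 1.25 in Ezh2 cKO, with overlap between the libraries. For the S phase genes the sum went from 95.5 ± 7.55 to 54.5 ± 0.235, and for the G2/M genes from 67.0 ± 0.361 to 31.5 ± 1.28. The sums over all genes of a phase did not overlap between the groups in any phase, and the difference between phases was not tested. Such separation was common, as 41.5% of all single genes tested separated as lower and 42.8% as higher.

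**Figure D2:**
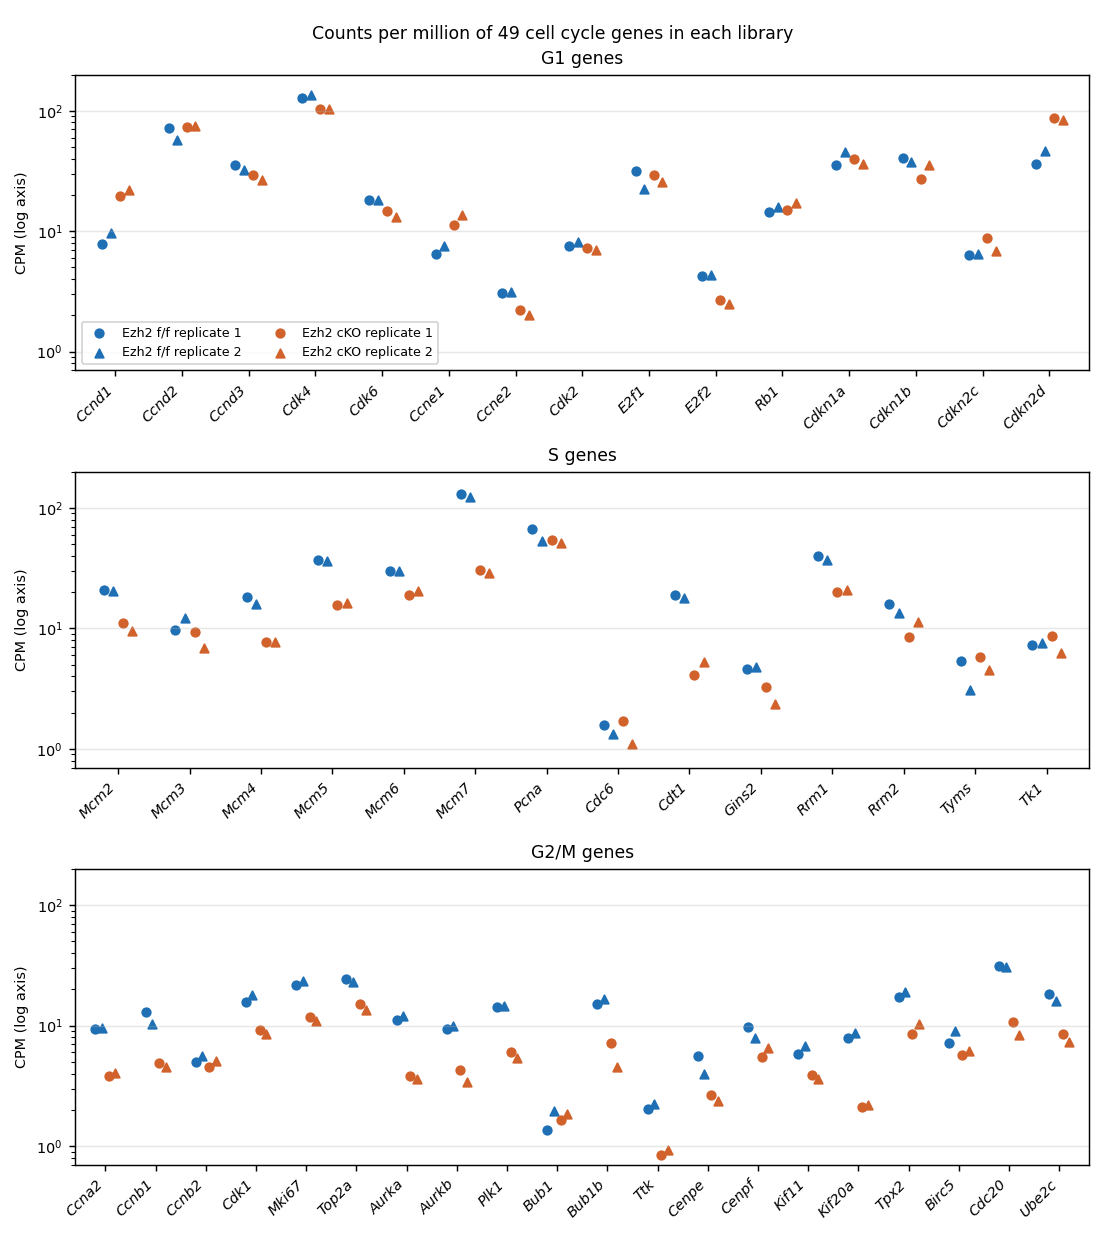
CPM of each gene is shown on a log axis for the 2 Ezh2 f/f libraries (blue) and the 2 Ezh2 cKO libraries (orange), with circles for replicate 1 and triangles for replicate 2. Libraries of a group sit close together for genes such as Mcm7, Aurka and Kif20a, and overlap between groups for genes such as E2f1, Tk1 and Bub1.

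The genes that rose are all regulators of G1. Ccnd1 (ENSMUSG00000070348), which encodes cyclin D1, had 7.79 and 9.67 CPM in the Ezh2 f/f libraries against 19.6 and 22.1 in the Ezh2 cKO libraries. Both Ezh2 cKO libraries were above both Ezh2 f/f libraries, and the log2 change was 1.26 (SE 0.16, adjusted p = 8.82e-06). Cdkn2d (ENSMUSG00000096472), which encodes the inhibitor p19INK4d of Cdk4 and Cdk6, had 35.9 and 46.1 CPM in Ezh2 f/f against 87.6 and 83.9 in Ezh2 cKO. The groups did not overlap, and the log2 change was 1.07 (SE 0.11, adjusted p = 1.58e-06). Ccne1, one of the genes for cyclin E, had 6.50 and 7.51 CPM in Ezh2 f/f against 11.3 and 13.7 in Ezh2 cKO, again without overlap. Its log2 change was 0.83 (SE 0.18, adjusted p = 8.95e-04). An activator of the G1 kinases and an inhibitor of them rose in the same libraries.

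Within the D cyclins, the share of Ccnd1 in the summed FPKM went from 12.4% and 17.4% in Ezh2 f/f to 27.2% and 30.1% in Ezh2 cKO. Ccnd2, the most abundant D cyclin gene in all 4 libraries, held 57.1% and 51.3% in Ezh2 f/f against 51.1% and 50.5% in Ezh2 cKO. Its level was 64.3 ± 10.5 CPM in Ezh2 f/f against 73.8 ± 0.385 in Ezh2 cKO (SD, n = 2), a log2 fold change of 0.20 that was not called (adjusted p = 0.129). Ccnd2 passed edgeR's test with library size alone, without TMM factors (log2 fold change 0.28, adjusted p = 0.0418). With 1 library left out its log2 fold change ranged from 0.025 to 0.38. Ccnd3 fell by 0.29 on the log2 scale, and its share went from 30.5% and 31.2% to 21.7% and 19.3%. The partner kinase genes Cdk4, with the highest FPKM of the 49 genes in Ezh2 f/f (39.3 ± 1.06, SD, n = 2), and Cdk6 fell by 0.33 and 0.38 (adjusted p = 0.00441 and 0.0280).

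Among the inhibitors, Cdkn2d made up 51.7% and 55.4% of the summed FPKM of Cdkn1a, Cdkn1b, Cdkn2c and Cdkn2d in Ezh2 f/f, against 73.2% and 72.3% in Ezh2 cKO. Cdkn1b, which encodes p27, fell by 0.31 (adjusted p = 0.0409). Without Ezh2 cKO replicate 1 its log2 fold change was -0.14 (adjusted p = 0.417). Cdkn1a, which encodes p21 and is a target of p53, had 35.8 and 45.9 CPM in Ezh2 f/f against 39.5 and 35.8 in Ezh2 cKO. The libraries overlapped, and the interval of its log2 fold change ran from -0.38 to 0.15. Without Ezh2 f/f replicate 1 Cdkn1a was called lower (-0.28, adjusted p = 0.0433, with 0.921 as the highest adjusted p of the alternatives). Cdkn2c was at 0.30, with an interval from -0.12 to 0.73.

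Among the retinoblastoma and E2F genes, E2f2 was called lower, whereas E2f1 and Rb1 were not called. Whether their changes differ from each other was not tested. E2f2, which encodes an activating E2F factor, had 4.22 and 4.33 CPM in Ezh2 f/f against 2.67 and 2.48 in Ezh2 cKO. Both Ezh2 cKO libraries were lower, with a log2 change of -0.73 (SE 0.25, adjusted p = 0.0181). E2f1, another activator, had 31.9 and 22.5 CPM in Ezh2 f/f against 29.6 and 25.5 in Ezh2 cKO, with an interval from -0.31 to 0.34. The libraries of the groups overlapped for E2f1 and for Rb1, the retinoblastoma gene (interval -0.23 to 0.40). Cdk2 and its partner gene Ccne2 were at -0.12 and -0.54 and were not called (adjusted p = 0.565 and 0.0983). Calls of Ccnd3, Cdk6, Cdkn1b and E2f2 were each lost in some alternatives, with adjusted p up to 0.417 for Cdkn1b, 0.349 for Cdk6, 0.285 for Ccnd3 and 0.133 for E2f2. Some of these calls were lost with 1 library left out. Such a fit leaves 1 library in a group, so the loss cannot be laid to a particular library. Without Ezh2 f/f replicate 1 the log2 fold change was -0.21 for Ccnd3 and -0.26 for Cdkn1b. Without Ezh2 cKO replicate 1 it was -0.36 for Ccnd3, -0.46 for Cdk6 and -0.78 for E2f2. Without Ezh2 cKO replicate 2 it was -0.22, -0.30 and -0.67 for the same genes.

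Of the 6 MCM2-7 helicase genes, 5 fell, beside 33.6% of all genes tested that were called lower. Mcm7 (ENSMUSG00000029730) had 132 and 122 CPM in Ezh2 f/f against 30.5 and 29.1 in Ezh2 cKO. Every Ezh2 cKO value was below every Ezh2 f/f value by a wide margin, and the log2 change of -2.09 (SE 0.10, adjusted p = 7.57e-10) was the lowest of the 49 genes. Cdt1, whose product loads the helicase onto origins, had 325 and 283 counts in Ezh2 f/f against 72 and 92 in Ezh2 cKO. The groups did not overlap, and its log2 change was -1.98 (SE 0.18, adjusted p = 2.83e-07). The other helicase subunits fell less: Mcm5 by 1.19, Mcm4 by 1.15, Mcm2 by 1.01 and Mcm6 by 0.61 on the log2 scale. Mcm3 was at -0.43 and was not called (adjusted p = 0.0641), although both Ezh2 cKO libraries (9.36 and 6.93 CPM) were below both Ezh2 f/f libraries (9.72 and 12.3 CPM). Mcm3 passed with the replicate number as a block in edgeR (-0.43, adjusted p = 0.0421). Its log2 fold change ranged from -0.66 to -0.23 with 1 library left out.

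The 6 subunits form a ring in equal amounts, whereas their transcripts did not have equal levels. Mcm7 made up 53.0% and 51.3% of the summed FPKM of MCM2-7 in Ezh2 f/f against 32.7% and 32.1% in Ezh2 cKO. The sum went from 53.4 ± 1.93 to 21.4 ± 0.137 FPKM (SD, n = 2), to 0.400 of its Ezh2 f/f value. In the deposited coordinates Mcm7 shares 64 bases with Cops6 and 421 bases with Ap4m1, both on the opposite strand. Cops6 had 959 and 1058 counts in Ezh2 f/f against 2668 and 2465 in Ezh2 cKO, and Ap4m1 had 489 and 454 against 235 and 198. The use of strand in counting is not given in the sources used here, so reads in the shared bases are uncertain.

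The promoters of Mcm7 and Cdt1, the S phase genes with the lowest log2 fold changes, are shown from RefSeq (GRCm38.p6), from 250 bases before the transcription start to 50 after it, 5′ to 3′ on the gene's strand. Capitals mark matches to TTCCCGC or TTGGCGC (E2F type), TTTGAA (CHR) and CCAAT (NF-Y type) on either strand. The windows are chr5:138171834-138172133 on the minus strand for Mcm7, at its most upstream start, and chr8:122567765-122568064 on the plus strand for Cdt1.
Mcm7: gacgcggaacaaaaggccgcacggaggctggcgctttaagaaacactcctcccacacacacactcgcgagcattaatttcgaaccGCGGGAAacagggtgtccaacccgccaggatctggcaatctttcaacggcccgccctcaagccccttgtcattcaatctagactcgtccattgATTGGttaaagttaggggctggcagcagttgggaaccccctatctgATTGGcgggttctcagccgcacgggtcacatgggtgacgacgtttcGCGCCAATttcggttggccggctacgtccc
Cdt1: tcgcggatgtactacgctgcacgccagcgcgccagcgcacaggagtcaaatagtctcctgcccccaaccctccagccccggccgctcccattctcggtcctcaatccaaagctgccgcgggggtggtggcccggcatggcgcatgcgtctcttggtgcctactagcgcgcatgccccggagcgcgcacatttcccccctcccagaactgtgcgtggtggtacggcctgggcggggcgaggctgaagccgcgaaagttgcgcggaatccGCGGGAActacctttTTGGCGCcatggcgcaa
Each of these windows holds 2 E2F type matches and no CHR. In Mcm7 an E2F type match and a CCAAT box overlap in the same run of capitals downstream of the start.

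Not all S phase genes were lower. Rrm1 and Rrm2, which encode the large and small subunits of ribonucleotide reductase, fell by 0.91 and 0.58 (adjusted p = 7.17e-06 and 0.00983). Gins2, a part of the active helicase, fell by 0.72 (adjusted p = 0.0216). With all 4 libraries the call of Gins2 was lost under DESeq2's Wald test (-0.74, adjusted p = 0.128) and in the 3 limma fits (adjusted p = 0.0596 to 0.136). That of Rrm2 was lost with limma without a filter (-0.40, adjusted p = 0.136). Both calls were also lost in a fit without 1 Ezh2 cKO library: Rrm2 without replicate 1 (-0.39) and Gins2 without replicate 2 (-0.50). The nucleotide supply genes Tyms and Tk1, which encode thymidylate synthase and thymidine kinase, overlapped between the groups. Tyms had 5.33 and 3.05 CPM in Ezh2 f/f against 5.84 and 4.50 in Ezh2 cKO, and Tk1 had 7.32 and 7.64 against 8.62 and 6.29. Their intervals ran from -0.29 to 0.88 and from -0.43 to 0.43. Pcna, which encodes the sliding clamp of the DNA polymerases, had 67.4 and 53.1 CPM in Ezh2 f/f against 54.5 and 51.5 in Ezh2 cKO. Its libraries overlapped too (interval -0.43 to 0.05), but without Ezh2 f/f replicate 2 it was called lower (-0.36, adjusted p = 0.00974, within a range of 0.00974 to 0.979). Tyms was called higher without Ezh2 f/f replicate 1 (0.76, adjusted p = 0.0192, within a range of 0.0192 to 0.855). Cdc6, with 19 to 30 counts per library, had an interval from -0.86 to 0.74.

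Most G2/M genes fell. Cdc20, which encodes the activator of the anaphase-promoting complex, had 31.1 and 30.5 CPM in Ezh2 f/f against 10.7 and 8.43 in Ezh2 cKO. The difference was far larger than the spread within either group, with a log2 change of -1.69 (SE 0.15, adjusted p = 1.97e-07). Kif20a, which encodes a kinesin of the central spindle, had 7.90 and 8.66 CPM in Ezh2 f/f against 2.10 and 2.19 in Ezh2 cKO, a log2 change of -1.94 (SE 0.23, adjusted p = 3.73e-06). It was the lowest of the G2/M genes. It shares 2327 bases with Cdc23 on the opposite strand, which had 898 and 802 counts in Ezh2 f/f against 940 and 941 in Ezh2 cKO.

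Of 6 mitotic kinase and checkpoint kinase genes 5 fell, where 33.6% of all genes tested were called lower. Aurka, which encodes Aurora A of the spindle poles, had 11.1 and 12.1 CPM in Ezh2 f/f against 3.80 and 3.58 in Ezh2 cKO, a log2 change of -1.65 (SE 0.19, adjusted p = 3.24e-06). Aurkb, for Aurora B of the chromosomal passenger complex, fell by 1.34, and Plk1, for Polo-like kinase 1, fell by 1.34. The spindle checkpoint genes Bub1b and Ttk fell by 1.44 and 1.26, whereas Bub1 was at 0.08. Bub1 had 23 to 32 counts per library and an interval from -0.65 to 0.81. The summed FPKM of these 6 kinase genes went from 18.4 ± 0.736 to 7.49 ± 0.771 (SD, n = 2).

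Cyclin genes of mitosis did not all move. Ccna2 fell by 1.28 and Ccnb1 by 1.32 (adjusted p = 4.70e-05 and 3.46e-05), and their partner Cdk1 fell by 0.92. Ccnb2, the other cyclin B gene, had 4.98 and 5.60 CPM in Ezh2 f/f against 4.54 and 5.08 in Ezh2 cKO, overlapping between the groups. Its log2 fold change was -0.14, with an interval from -0.60 to 0.33 that does not reach the change of Ccnb1. Whether the changes of the cyclin B genes differ from each other was not tested.

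Mki67, which encodes the proliferation marker Ki-67, had 21.8 and 23.7 CPM in Ezh2 f/f against 11.8 and 10.9 in Ezh2 cKO. Both Ezh2 cKO libraries were lower, and the fitted level was 2.01-fold lower (adjusted p = 2.31e-05). Top2a, for the topoisomerase that untangles chromosomes, fell by 0.73. Ube2c, the ubiquitin-conjugating enzyme of the anaphase-promoting complex, fell by 1.11. The spindle factor Tpx2 fell by 0.95, the kinesins Kif11 and Cenpe by 0.75 and 0.92, and the centromere protein Cenpf by 0.55. Birc5, which encodes survivin of the chromosomal passenger complex, was at -0.45 and missed the threshold (adjusted p = 0.0561), with 7.20 and 9.10 CPM in Ezh2 f/f against 5.73 and 6.18 in Ezh2 cKO. It passed with DESeq2's size factors in edgeR (-0.47, adjusted p = 0.0487). Its log2 fold change ranged from -0.61 to -0.29 with 1 library left out. Calls of Cenpe, Cenpf, Kif11 and Ttk were lost in some alternatives, with adjusted p up to 0.143, 0.316, 0.116 and 0.0819. Some of these losses came with 1 library left out, a fit that leaves 1 library in a group. Without Ezh2 f/f replicate 1 the log2 fold change was -0.65 for Cenpe and -0.38 for Cenpf. Without Ezh2 cKO replicate 1 it was -0.43 for Cenpf and -1.20 for Ttk. Without Ezh2 cKO replicate 2 it was -0.83 for Cenpe and -0.69 for Kif11.

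The promoters of Cdc20 and Aurka are shown as examples of G2/M genes that fell by at least 2-fold, in the same layout and with the same capitals. The windows are chr4:118437294-118437593 and chr2:172370521-172370820, both on the minus strand. That of Cdkn2d, at chr9:21291160-21291459 on the minus strand, is given beside them as a G1 gene that rose.
Cdc20: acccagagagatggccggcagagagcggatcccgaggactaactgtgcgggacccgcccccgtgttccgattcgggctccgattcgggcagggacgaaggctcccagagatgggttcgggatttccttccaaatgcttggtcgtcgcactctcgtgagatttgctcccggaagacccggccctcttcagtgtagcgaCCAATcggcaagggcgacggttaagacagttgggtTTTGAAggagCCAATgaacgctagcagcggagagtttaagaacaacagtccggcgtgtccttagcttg
Aurka: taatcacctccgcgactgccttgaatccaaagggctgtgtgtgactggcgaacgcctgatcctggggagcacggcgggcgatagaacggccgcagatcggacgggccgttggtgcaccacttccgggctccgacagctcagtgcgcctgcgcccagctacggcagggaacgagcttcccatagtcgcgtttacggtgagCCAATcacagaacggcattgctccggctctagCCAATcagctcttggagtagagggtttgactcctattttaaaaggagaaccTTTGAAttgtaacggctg
Cdkn2d: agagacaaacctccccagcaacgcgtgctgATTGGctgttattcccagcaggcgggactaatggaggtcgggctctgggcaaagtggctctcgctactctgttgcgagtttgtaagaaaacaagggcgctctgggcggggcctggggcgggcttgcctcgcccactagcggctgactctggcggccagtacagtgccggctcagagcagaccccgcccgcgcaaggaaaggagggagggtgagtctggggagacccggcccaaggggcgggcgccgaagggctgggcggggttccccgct
Cdc20 and Aurka each hold 1 CHR match and 2 CCAAT matches near the start, while Cdkn2d holds 1 CCAAT match far upstream and no match to the other motifs.

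A RefSeq promoter window was found for 39 of the 49 genes, and the 10 without one are Rb1, Ccnd1, Ccnd2, Ccne2, Ccna2, Mcm4, Gins2, Aurkb, Kif20a and Tpx2. A CHR was present in 12 of 16 G2/M genes (75.0%), 1 of 12 S phase genes and 1 of 11 G1 genes, against 20.2% of all 27025 genes with a window. All 12 of these G2/M genes also held a CCAAT box, a combination found in 7.97% of all genes. The 16 CHR matches in G2/M windows had a median centre 15.5 bases before the start, and 11 of them lay within 50 bases of it. An E2F type match was present in 7 of 12 S phase genes (58.3%), 3 of 16 G2/M genes and 3 of 11 G1 genes, against 7.79% of all genes. CCAAT boxes, with or without another motif, were present in 15 of 16 G2/M genes, 8 of 12 S phase genes, 6 of 11 G1 genes and 41.1% of all genes.

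Set beside the expression changes, the 12 G2/M genes with a CHR had a median of -1.06 on the log2 scale and 11 of them fell, Ccnb2 being the exception. The 4 without one, Ccnb1, Bub1, Cenpe and Birc5, had a median of -0.69 and 2 of them fell. The 7 S phase genes with an E2F type match, Mcm3, Mcm5, Mcm6, Mcm7, Cdc6, Cdt1 and Rrm1, had a median of -0.91 and 5 of them fell. The 5 without one, Mcm2, Pcna, Rrm2, Tyms and Tk1, had a median of -0.19 and 2 of them fell. Genes without a promoter window are in none of these groups: Ccna2, Aurkb, Kif20a and Tpx2 of G2/M, and Mcm4 and Gins2 of S, all fell. Over all 20 G2/M genes 17 fell with a median of -1.06, and 33.6% of all genes tested were called lower. These counts are small and are given as a description, and a match to a short motif is not evidence that a factor binds there. Only the exact letters given above were searched, within the window, so a gene without a match may still hold a site.

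**Figure D3:**
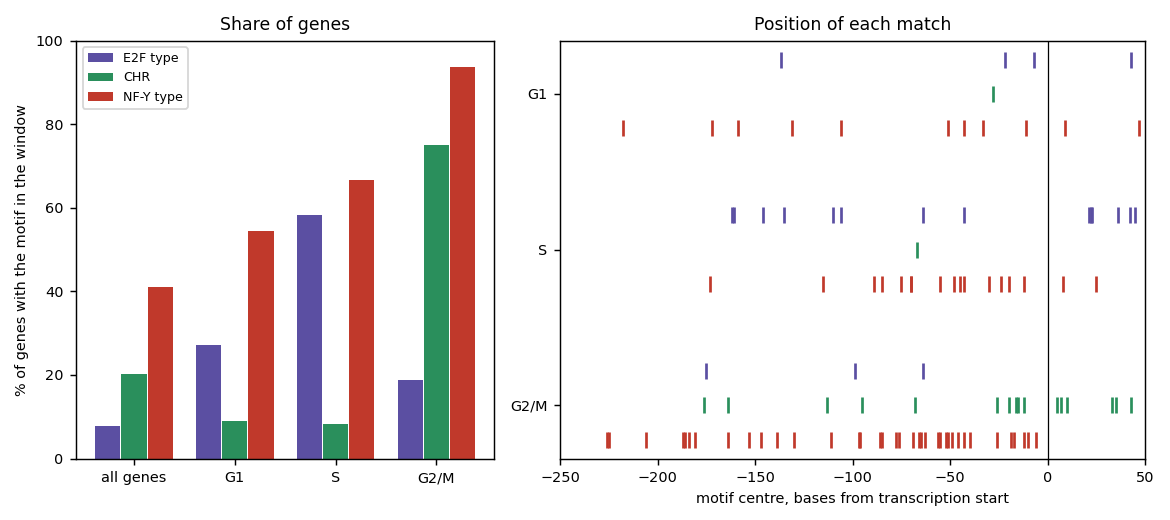
Left, the percentage of genes with each motif in the 300-base promoter window, for all 27025 genes and for the 11 G1, 12 S and 16 G2/M genes with a window; right, the distance of each match from the transcription start in bases, in rows by phase and with the same colours. CHR matches (green) are most frequent in G2/M genes (75.0%) and E2F type matches (violet) in S phase genes (58.3%).

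The other genes of the pathway were described from 4 lists. Their counts stand beside the 33.6% of all genes tested that were called lower and the 34.7% called higher. Foxm1, the transcription factor that drives many G2/M genes, had 32.1 and 30.4 CPM in Ezh2 f/f against 10.2 and 9.35 in Ezh2 cKO. Its libraries did not overlap between the groups, and it fell by 1.68 (SE 0.14, adjusted p = 9.64e-08). In the list of 65 further mitosis genes, which includes Foxm1, 44 fell and 1 rose, with a median of -0.81. The lowest were Mybl2, for the B-Myb factor that acts with Foxm1 (-2.09), and Trip13, for an ATPase of the spindle checkpoint (-1.97). The single higher gene, Hmmr, was at 0.65 (adjusted p = 0.0498, and 0.0269 to 0.326 in the alternatives).

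Of 48 further replication genes tested, 28 fell and 5 rose, with a median of -0.68. Chaf1b, for a subunit of the chromatin assembly factor that places histones on new DNA, had 31.9 and 37.2 CPM in Ezh2 f/f against 3.12 and 3.00 in Ezh2 cKO. Both Ezh2 cKO libraries were far below both Ezh2 f/f libraries, with a log2 change of -3.49 (SE 0.17, adjusted p = 6.74e-10). Top3a, for a type I topoisomerase, fell by 2.72. Rpa1, for the large subunit of the single-strand binding protein, and Orc5, of the origin recognition complex, rose by 0.58 and 0.60. Fen1, for the flap endonuclease of lagging strand synthesis, had 1, 0, 1 and 0 counts and was not tested; it shares 3253 bases with Gm10143 and 156 with Tmem258 in the deposited coordinates.

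Among 29 further G1 control genes tested, 19 fell and 2 rose, with a median of -0.71. The lowest were E2f7, for a repressive E2F factor (-1.76), and Mycl, of the Myc family (-1.63). Ccng1, for cyclin G1, a target of p53, had 6.56 and 7.83 CPM in Ezh2 f/f against 29.0 and 31.1 in Ezh2 cKO and rose by 2.06 (SE 0.15, adjusted p = 3.35e-08). Ccnh, for the cyclin of the Cdk-activating kinase, rose by 0.52, and it shares 8690 bases with Rasa1 on the opposite strand. Without Ezh2 cKO replicate 2 the call of Ccnh was lost (0.41, adjusted p = 0.0621). Of the inhibitor genes known as Polycomb targets, Cdkn1c, which encodes p57, had 287 and 390 counts in Ezh2 f/f against 142 and 136 in Ezh2 cKO and fell by 1.38. Cdkn2a had 12 and 5 counts in Ezh2 f/f against 8 and 3 in Ezh2 cKO and was not tested. Cdkn2b, with 25 and 15 against 30 and 16 counts, was at 0.11 (adjusted p = 0.823).

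The anaphase-promoting complex and its regulators split more evenly. Of 16 such genes 8 fell and 3 rose, with a median of -0.19. Anapc7 and Fbxo5, the latter an inhibitor of the complex, fell by 1.04 and 0.89, the call of Fbxo5 being lost without Ezh2 cKO replicate 2 (adjusted p = 0.0807). Anapc11, the catalytic RING subunit, and Anapc16 rose by 0.61 and 0.64. Cdc20 and Ube2c, members that act with the same complex, fell by 1.69 and 1.11.

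**Figure D4:**
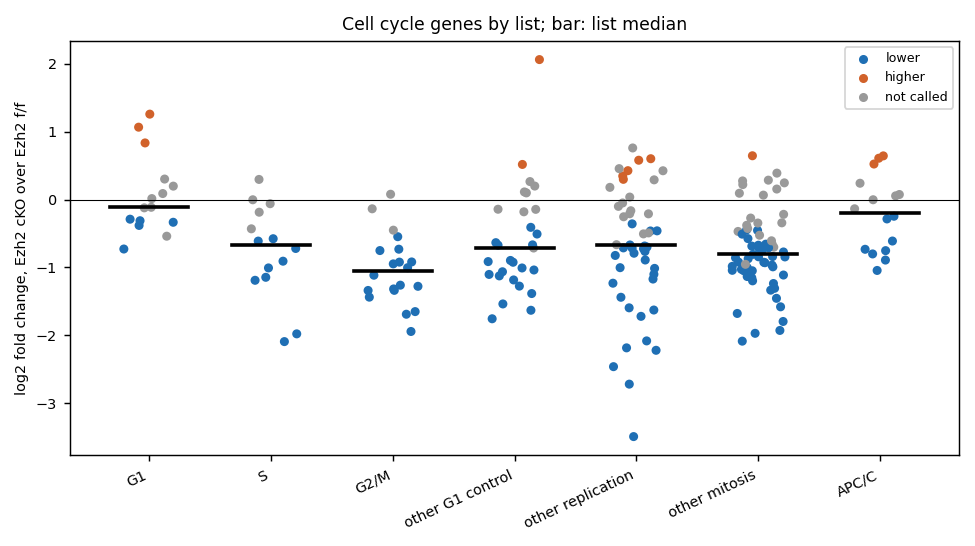
Each point is the log2 fold change (Ezh2 cKO over Ezh2 f/f) of a tested gene, in the 3 phases of the 49 genes and in the 4 lists of other cell cycle genes; blue is lower, orange higher, grey not called, and the bar is the list's median. The medians lie between -1.06 (G2/M) and -0.11 (G1).

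Markers of cell types were read in the same libraries, in which 33.6% of all genes tested were called lower and 34.7% higher. Of 14 astrocyte markers 12 rose and none fell (0 at an unadjusted p under 0.05 in edgeR), and their summed FPKM was 197 to 198 in Ezh2 f/f and 714 to 793 in Ezh2 cKO. Aldh1l1, whose promoter drives Cre, was at 75.2 and 79.6 CPM against 72.6 and 66.7 (adjusted p = 0.175). Of 15 neural progenitor markers 9 fell and 4 rose, with a median of -0.61. The markers of intermediate progenitors and immature neurons were among the lower ones, with Eomes at -3.46, Igfbpl1 at -3.31 and Sox11 at -2.99, and Nes, which encodes nestin, at -1.62. Summed over the progenitor list, FPKM was 371 to 391 in Ezh2 f/f and 430 to 480 in Ezh2 cKO, with Fabp7 (0.91) and Hopx (2.12) among the higher genes.

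All 9 oligodendrocyte precursor markers rose (summed FPKM 60.2 to 60.9 against 190 to 212), as did all 7 oligodendrocyte markers tested of 8 (21.4 to 23.1 against 143 to 163) and all 10 microglia markers (59.5 to 60.0 against 147 to 168). Of 8 endothelial markers 1 fell and 2 rose (111 to 117 against 109 to 126), and of 11 neuron markers 3 fell and 6 rose (2378 to 2430 against 2161 to 2166). The neuronal tubulin gene Tubb3 had 57681 to 60862 counts in Ezh2 f/f and 37613 to 39585 in Ezh2 cKO, and Dcx, of immature neurons, was at -1.49. These 2 genes do not stand for the neuron list, in which more markers rose than fell. Its middle value was 0.47 and its highest 3.44 on the log2 scale. None of the 75 markers was at 0 in both libraries of a group, although the oligodendrocyte marker Mobp had 0 and 6 counts in Ezh2 f/f. The summed levels of these lists, except that of the endothelial list, did not overlap between the groups, and their part in the changes of the cell cycle genes was not tested. Of all single genes tested, 41.5% separated between the groups as lower and 42.8% as higher.

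**Figure D5:**
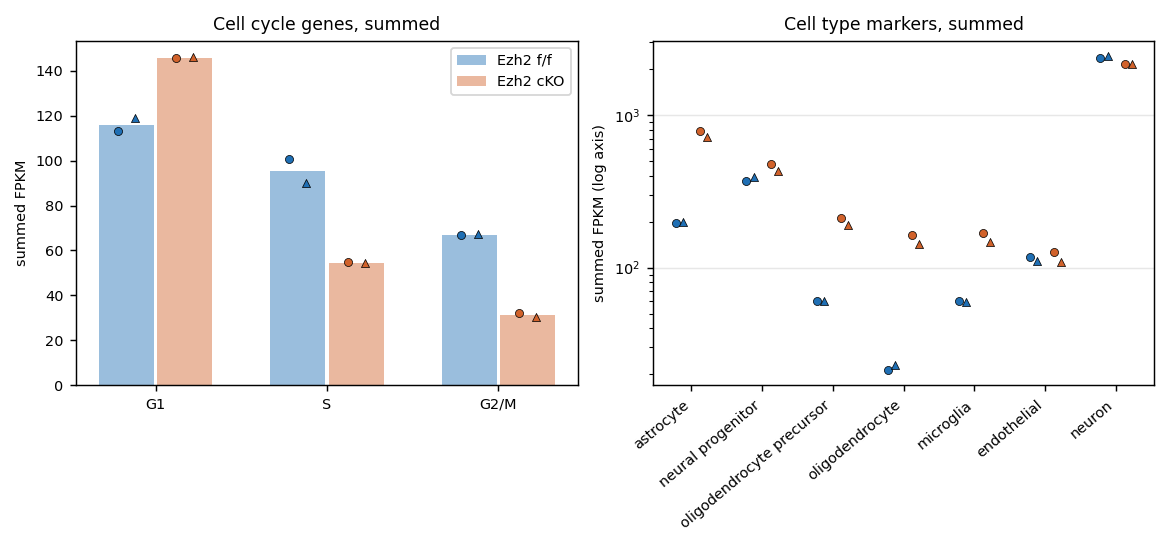
Summed FPKM per library of the G1, S and G2/M genes (left, linear axis, bars are means of 2 libraries) and of the cell type marker lists (right, log axis); blue is Ezh2 f/f, orange Ezh2 cKO, circles replicate 1 and triangles replicate 2. The S and G2/M sums are lower in both Ezh2 cKO libraries, and the astrocyte, oligodendrocyte precursor, oligodendrocyte and microglia sums are higher.

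Of the 34 members called, 24 kept their call in each of the 13 alternatives that gave a value, and none changed sign. In the deposited coordinates 18 members overlap a gene on the opposite strand, 13 of them a protein-coding one, and without known use of strand their counts are uncertain. Among these is Ccnd1, which shares 1771 bases with LTO1; that gene had 193 and 192 counts in Ezh2 f/f against 429 and 419 in Ezh2 cKO. Cdc20 shares 53 bases with Elovl1, Ube2c 1662 with Tnnc2, Cdk4 641 with Tspan31 and Gins2 2758 with Gse1, which had 666 and 441 counts in Ezh2 f/f against 179 and 163 in Ezh2 cKO.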

How the data were processed

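RNA was sequenced from 4 libraries on the Illumina HiSeq platform. The authors deposited raw counts per gene without normalization, and FPKM values, which they scaled to gene length and library size. Their tables also hold a mean signal, a fold change of Ezh2 f/f over Ezh2 cKO and p-values of their own comparison, which were not used; 0 per-sample columns were left out. The submitters' processing notes name Bowtie2 2.2.3, TopHat2 2.0.12, HTSeq 0.6.0 and the build mm9, with no roles. The annotation and the use of strand are not given in the sources used here. Of the 49 members, 1 has the same deposited coordinates as in GENCODE M21 (GRCm38), so gene coordinates are not printed, and promoters are from RefSeq on GRCm38.p6.

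Libraries were grouped by their titles and the design text. Libraries of the same group were further apart than sampling noise (a chi-square per degree of freedom of 8.92 and 5.68) and were kept as replicates. Counts were filtered with filterByExpr and normalized by TMM (factors 0.976, 0.967, 1.019 and 1.040), and CPM use these factors. edgeR 4.0.16 (R 4.3.3) fitted its quasi-likelihood test with no term but the group (biological coefficient of variation 0.0953), with Benjamini-Hochberg adjustment over the 16793 genes tested. The calling threshold was an adjusted p of 0.05. An exact permutation test of 1 gene cannot go below p = 0.333 with 2 against 2. The limit of detection of 3 counts covers counting error only. The fit was tested on simulated data with 200 altered genes.

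The members and lists were chosen with earlier results of these data known. The genes named are all members, Ezh2, Foxm1, up to 2 highest and 2 lowest called genes of each other cell cycle list, Cdkn1c, Cdkn2a and Cdkn2b, and defining cell type markers; Fen1 and genes that overlap a member were named after their values were seen. Of the G1 control list, Lin54 was not found in the tables. Alternatives were DESeq2 1.42.0, its size factors in edgeR, library size alone, no filter or at least 50 counts on average, limma 3.58.1 on log2(FPKM + 1) and log2(FPKM + 0.1) with an FPKM of at least 1 in 2 libraries or no filter, the replicate number as a block, and each library left out. Python 3.11.15 with pandas 2.3.3, numpy 2.4.6 and matplotlib 3.10.9 was used for summaries, motif searches and plots.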

Additional observations from a re-analysis of the deposited data

How the results depend on the processing

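The counts of members called lower stayed within 1.5 times of 31 in the alternatives run, with 22 under DESeq2's Wald test; of the single-gene results compared, 533 kept direction and side of the threshold, 52 lost a call, 10 gained one and 20 changed sign. The cause of these differences was not tested.

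The members' median log2 fold change of -0.61 was -0.53 with library size alone, which moves the median of all genes to 0.10, -0.69 with at least 50 counts, -0.42 with limma on log2(FPKM + 1), -0.55 with log2(FPKM + 0.1) and -0.26 with limma without a filter. The 5 G1 genes called lower became 1 with DESeq2 and with each of the 3 limma fits, 2 with library size alone, and 3 without a filter and with at least 50 counts. The G1 median was -0.030 with library size alone, -0.016 with at least 50 counts, -0.021 with limma without a filter, and turned to 0.10 and 0.12 with limma on log2(FPKM + 1) and log2(FPKM + 0.1). The S median was -0.58 with library size alone, and -0.52 and -0.42 with limma on log2(FPKM + 1) with and without a filter. The G2/M median was -0.98 with library size alone, -0.78 and -1.12 with limma on log2(FPKM + 1) and log2(FPKM + 0.1), and -0.62 with limma without a filter. The higher gene of the mitosis list became 0 with DESeq2, DESeq2's size factors, no filter and all limma fits, and 2 with library size alone, and its 44 lower genes became 28 with limma without a filter. The 8 lower genes of the anaphase-promoting complex list became 5 with limma without a filter.

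Leaving out 1 library at a time, the remaining one of its group being assumed to vary like the other group, gave 3 to 5 members higher and a median of -0.70 to -0.61. The G1 genes called lower were 1 to 5 and their median -0.17 to -0.041, with 1 lower when Ezh2 cKO replicate 1 was left out and 2 when Ezh2 cKO replicate 2 was. The S genes called higher were 0 to 1 and their median -0.77 to -0.68, and the G2/M median was -1.19 to -1.04. Higher genes were 3 to 5 in the replication list (3 when Ezh2 cKO replicate 1 was left out), 0 to 0 in the mitosis list and 1 to 2 in the G1 control list (1 when Ezh2 cKO replicate 2 was left out), and lower genes of the anaphase-promoting complex list were 5 to 8 (5 when Ezh2 cKO replicate 2 was left out).

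Sign changes occurred in 7 members, none of them called. With 1 library left out, E2f1 ranged from -0.23 to 0.29, Rb1 from -0.013 to 0.19, Cdkn1a from -0.28 to 0.060, Cdc6 from -0.41 to 0.22, Tyms from -0.058 to 0.76, Tk1 from -0.25 to 0.21 and Bub1 from -0.18 to 0.36. Cdkn2b, which is no member, ranged from -0.39 to 0.49. E2f1 was also at -0.0034 with DESeq2 and -0.0020 with its size factors, and Cdc6 at 0.020 with library size alone and 0.0031 with limma without a filter. Tk1 turned to 0.079 with library size alone, 0.031 with at least 50 counts, 0.040 with limma on log2(FPKM + 1) with or without a filter and 0.059 with log2(FPKM + 0.1).

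The libraries share only a replicate number (deviations of same-numbered libraries correlated with r = 0.130 across genes, which are not independent). With the replicate number as a block, 31 members were lower and 3 higher, 4 of them lower in G1 and 10 in S, and the mitosis list had 0 higher. Cdc6, Bub1 and Ttk, with 15 to 35 counts per library, had standard errors of 0.37, 0.34 and 0.35 on the log2 scale.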
